A study of Mus musculus with 4 samples.

Results

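The integrin chains that pair in T and NK cells were read in double-negative regulatory T cells (DNT), αβ T cells of the mouse that lack both CD4 and CD8 and can hold other immune cells in check. The 10 genes were taken by name from the deposited table of 35275 genes. They are the alpha chains Itgal, Itgax, Itga4, Itgae, Itga1, Itga2 and Itgav and the beta chains Itgb2, Itgb7 and Itgb1. All 10 were found and all 10 had a mean of at least 1 RPKM (a read count divided by transcript length and library size), the lower limit for testing. 2 libraries came from DNT of OX40-knockout mice and 2 from DNT of wild-type mice, all of the C57BL/6 strain. OX40 is the product of Tnfrsf4 and costimulates activated T cells. Per the labels, DNT of both groups were converted from naive CD4 T cells, and CD3- and TCRαβ-positive cells without NK markers, CD4 or CD8 were sorted. The labels give neither the age of the mice, nor the part of Tnfrsf4 that was removed, nor whether replicate libraries are of different mice or cultures. The p-values therefore cover only the spread of these libraries, which may be technical.

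Integrins are surface receptors made of 1 alpha and 1 beta chain, and neither chain normally reaches the surface without a partner. The beta2 chain pairs with alphaL as LFA-1, which holds T cells and NK cells to targets that display ICAM proteins, and with alphaX (CD11c) as a complement receptor. The beta7 chain pairs with alpha4 for homing to gut vessels through MAdCAM-1 and with alphaE (CD103) for binding E-cadherin on epithelium. The beta1 chain pairs with alpha4 as VLA-4, which binds VCAM-1 and fibronectin, and with alpha1 and alpha2 as collagen receptors. The alphav chain pairs with several beta chains and can release active TGF-beta from its latent complex.

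Sequencing depth, as the library totals that the values imply, was 22220888 and 22571186 reads for OX40-knockout 1 and 2, and 23215528 and 24395743 reads for wild-type 1 and 2. The targeted gene Tnfrsf4 was at 12.1 and 9.38 RPKM in the OX40-knockout libraries, against 18.2 and 12.3 RPKM in the wild-type libraries. Its transcript was thus read in both groups, and the groups are named as the labels give them. Of 9 αβ T cell markers none was under 1 RPKM in every library, with summed levels of 2346 and 2252 RPKM in the OX40-knockout and 2527 and 2206 RPKM in the wild-type libraries. OX40-knockout 1 stood apart from the other libraries. In it, 6.06% of 11625 tested genes lay at least 1.5-fold above the highest of the other 3 libraries, and 3.95% were at least 1.5-fold below the lowest. The same counts for any other single library did not pass 0.791% in either direction. The 1.5-fold limit was set after values were seen. Results below that rest on OX40-knockout 1 are given with and without it.

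The upstream sequences of 4 chains are shown, because the values below turn on how these partners differed between libraries: alpha4, both beta chains it pairs with, and alpha1, which pairs with beta1. Each is the 250 bases before the gene's start in RefSeq on GRCm38.p6, read 5′ to 3′ on the gene's strand. The Itga4 window is chr2:79255176-79255425 (plus strand), the Itgb7 window chr15:102231936-102232185 (minus strand), the Itgb1 window chr8:128685404-128685653 (plus strand) and the Itga1 window chr13:115101965-115102214 (minus strand). Capitals mark matches on either strand to a RUNX motif (TGTGGT), an ETS motif (CGGAAG), a GC box (GGGCGG) or a SMAD motif (CAGACA).
Itga4: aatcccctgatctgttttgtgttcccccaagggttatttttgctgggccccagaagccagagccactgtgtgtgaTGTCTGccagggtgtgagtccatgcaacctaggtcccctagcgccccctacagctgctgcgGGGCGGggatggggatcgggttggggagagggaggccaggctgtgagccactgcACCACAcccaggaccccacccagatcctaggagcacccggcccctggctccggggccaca
Itgb7: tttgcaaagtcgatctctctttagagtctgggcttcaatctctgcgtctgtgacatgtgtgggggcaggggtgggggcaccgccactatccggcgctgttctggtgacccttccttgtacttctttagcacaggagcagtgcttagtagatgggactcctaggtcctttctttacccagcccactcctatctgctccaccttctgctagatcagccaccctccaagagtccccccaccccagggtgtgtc
Itgb1: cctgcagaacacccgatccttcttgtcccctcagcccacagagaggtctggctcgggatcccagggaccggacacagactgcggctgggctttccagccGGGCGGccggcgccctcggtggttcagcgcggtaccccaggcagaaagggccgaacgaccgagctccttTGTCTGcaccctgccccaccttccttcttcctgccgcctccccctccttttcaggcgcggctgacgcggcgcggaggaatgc
Itga1: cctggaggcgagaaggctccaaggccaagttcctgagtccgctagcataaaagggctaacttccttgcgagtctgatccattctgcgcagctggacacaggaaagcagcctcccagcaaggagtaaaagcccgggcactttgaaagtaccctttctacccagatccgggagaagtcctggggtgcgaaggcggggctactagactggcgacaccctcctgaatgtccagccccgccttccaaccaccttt
The Itga4 window held 1 RUNX motif, 1 GC box and 1 SMAD motif, and the Itgb1 window held 1 GC box and 1 SMAD motif. None of the 4 motifs was found in the Itgb7 and Itga1 windows. Over all 32851 windows of the same length, 14.0% held the RUNX motif, 13.6% the ETS motif, 32.7% the GC box and 17.1% the SMAD motif, so a match is common and is a description only. CpG dinucleotides numbered 6 for Itga4, 5 for Itgb7, 21 for Itgb1 and 10 for Itga1, with a median of 6 over all windows. The beta1 window was therefore rich in CpG, while the beta7 and alpha4 windows were near the median. RefSeq windows were at hand for 7 of the 10 members. Of the 3 not printed, Itgav held 1 ETS motif, Itga2 held 1 SMAD motif and Itgax held none.

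The beta2 chain and alphaL were among the highest integrin transcripts, and both varied little. Itgb2 was at 429.9 and 404 RPKM in the OX40-knockout libraries, against 395 and 359.9 RPKM in the wild-type libraries. Both OX40-knockout values lay above both wild-type values, by a log2 change of 0.15 (SE 0.11) that did not pass limma (adjusted p = 0.975 over 11625 genes). In bulk RNA, fewer cells of a type and less RNA per cell cannot be told apart. Itgal was at 274 and 260.4 RPKM in the OX40-knockout libraries and, in the wild-type libraries, at 275 and 271 RPKM. These 4 values lay within a factor of 1.06 of each other, and the groups overlapped (log2 change -0.03, SE 0.10, limma adjusted p = 0.975). The 95% limma interval of the change ran from -0.29 to 0.23 for Itgal and from -0.15 to 0.44 for Itgb2 on the log2(RPKM + 1) scale. The ratio of Itgal to Itgb2 was 0.637 and 0.644 in OX40-knockout 1 and 2, against 0.698 and 0.752 in wild-type 1 and 2. Its size depends on the length divided by. Per longest protein-coding transcript it was 0.907 and 0.917 in OX40-knockout 1 and 2, against 0.993 and 1.07 in wild-type 1 and 2. AlphaL made up nearly all of the beta2 partner transcripts in every library. Its share of the summed RPKM of Itgal, Itgax, Itgam and Itgad lay between 97.6% and 99.3% in the OX40-knockout libraries and between 97.7% and 99.2% in the wild-type libraries.

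**Figure D1:**
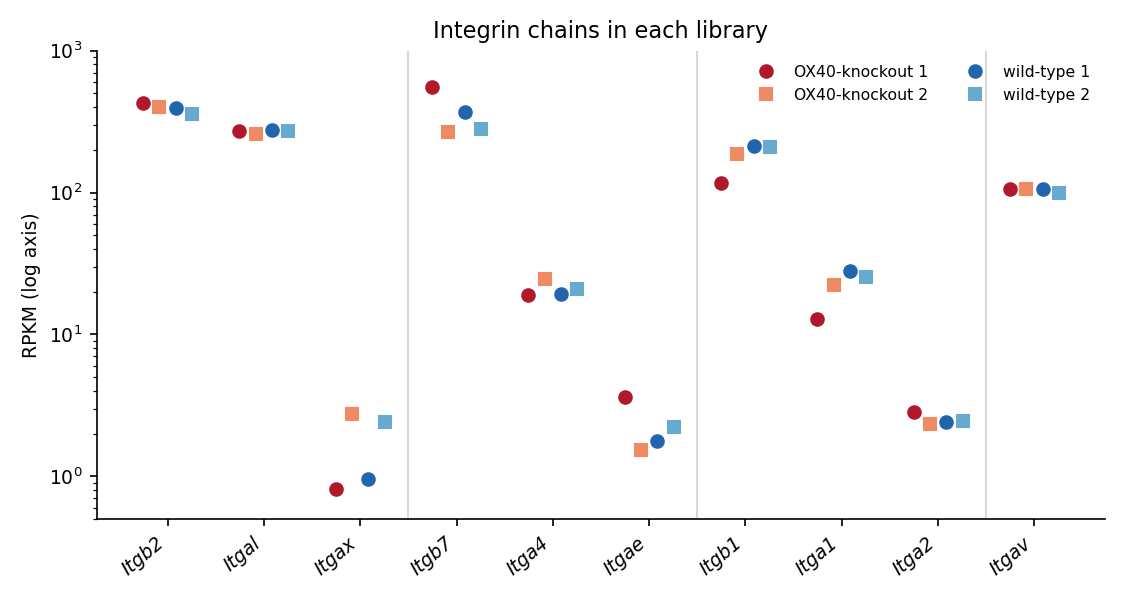
RPKM of the 10 integrin chains on a log axis, 1 point per library, OX40-knockout libraries left of wild-type libraries, with circles for replicate 1 and squares for replicate 2; vertical lines separate the beta2, beta7 and beta1 sets and alphav. Itgal, Itgb2 and Itgav lie nearly level over the libraries, OX40-knockout 1 is high for Itgb7 and Itgae and low for Itgb1 and Itga1, and Itgax is higher in both replicate 2 libraries.

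The beta7 transcript lay far above those of its alpha partners in every library. It was below Itgb2 in OX40-knockout 2 and both wild-type libraries and above it in OX40-knockout 1. Itgb7 was at 559 and 266 RPKM in the OX40-knockout libraries, against 367 and 281 RPKM in the wild-type libraries. The highest and the lowest of these 4 values both came from OX40-knockout libraries, so the groups overlapped completely. Itga4 was at 19.0 and 24.4 RPKM in the OX40-knockout libraries against 19.2 and 21.1 RPKM in those of wild-type, with overlapping groups as well. Itgae, which encodes alphaE, was at 3.63 and 1.52 RPKM in the OX40-knockout libraries, against 1.76 and 2.22 RPKM in the wild-type libraries. Its 95% Poisson intervals were 3.23 to 4.05 and 1.28 to 1.81 RPKM in OX40-knockout 1 and 2 (309 and 132 reads), against 1.498 to 2.06 and 1.93 to 2.55 RPKM in wild-type 1 and 2 (157 and 208 reads). These intervals cover counting error only. OX40-knockout 1 lay above the other libraries by more than counting error, and OX40-knockout 2 lay below wild-type 2. Itgb7 transcripts outnumbered the sum of Itga4 and Itgae per length by 24.7 and 10.3 times in OX40-knockout 1 and 2, and by 17.5 and 12.1 times in wild-type 1 and 2.

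None of the beta7 set passed the test. The log2 change was 0.26 (SE 0.38) for Itgb7, 0.10 (SE 0.16) for Itga4 and 0.20 (SE 0.34) for Itgae, each with a limma adjusted p of 0.975. Without OX40-knockout 1 the change turned to -0.27 for Itgb7 and -0.24 for Itgae, and without OX40-knockout 2 it was 0.80 for Itgb7, 0.63 for Itgae and -0.08 for Itga4. Without wild-type 1 it was 0.46 for Itgb7, and without wild-type 2 it was 0.07. The sign for beta7 and alphaE thus differed between the OX40-knockout libraries.

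The beta1 chain and alpha1 were the 2 members that stood lower in both OX40-knockout libraries than in either wild-type library. Itgb1 was at 117 and 187 RPKM in the OX40-knockout libraries, against 213 and 211 RPKM in the wild-type libraries. Itga1 was at 12.9 and 22.3 RPKM in the OX40-knockout libraries, against 27.9 and 25.5 RPKM in the wild-type libraries. The wild-type values lay close together for both genes, and OX40-knockout 1 lay far below OX40-knockout 2. The ratio of Itga1 to Itgb1 was 0.110 and 0.119 in OX40-knockout 1 and 2, against 0.131 and 0.121 in wild-type 1 and 2, so the pair varied together over the libraries. The log2 change was -0.51 (SE 0.24, unadjusted p = 0.0853) for Itgb1 and -0.62 (SE 0.27, unadjusted p = 0.0704) for Itga1, and neither passed limma (adjusted p = 0.975 for both). Without OX40-knockout 1 the changes shrank to -0.18 and -0.25. Without OX40-knockout 2 they were -0.85 and -0.99, with limma adjusted p of 0.0526 for Itgb1 and 0.0553 for Itga1. That fit sets OX40-knockout 1 alone against the wild-type pair, takes its spread from that pair only and assumes the lone library to vary alike. In it 33% of all tested genes had an unadjusted p under 0.05, so a low p was common there. Without wild-type 1 or 2 they stayed between -0.52 and -0.51 for Itgb1 and between -0.68 and -0.55 for Itga1.

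Itga2, the other collagen-binding alpha chain, did not follow alpha1, although the genes are direct neighbours on chromosome 13 and lie on the same strand. Itga2 was at 2.82 and 2.34 RPKM in the OX40-knockout libraries, against 2.43 and 2.44 RPKM in the wild-type libraries. The groups overlapped, and the 223 to 264 reads behind each value limit its precision to an interval such as 2.49 to 3.18 RPKM in OX40-knockout 1. The log2 change was 0.06 (SE 0.17, limma adjusted p = 0.975) and -0.04 without OX40-knockout 1. Pelo, a ribosome rescue factor whose gene lies inside the Itga1 gene on the same strand without sharing exon bases, was at 24.2 and 22.3 RPKM in the OX40-knockout libraries against 23.4 and 24.9 RPKM in the wild-type libraries. It did not show the low value of Itga1 in OX40-knockout 1.

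Itgav was the most even of the members after Itgal. It was at 106 and 106 RPKM in the OX40-knockout libraries, against 105 and 98.8 RPKM in the wild-type libraries. Both OX40-knockout values lay above both wild-type values, by a margin far smaller than a doubling. The 95% Poisson intervals of OX40-knockout 1 (103.1 to 108.6 RPKM) and wild-type 1 (102.7 to 108.1 RPKM) overlapped. The order of these 2 libraries was thus within counting error. The log2 change was 0.05 (SE 0.10, limma adjusted p = 0.975), with a 95% limma interval from -0.21 to 0.31. Its beta partner Itgb3 was at 120.1 and 95.9 RPKM in the OX40-knockout libraries, against 76.2 and 96.9 RPKM in the wild-type libraries. How the pair compare depends on the length divided by. Per longest protein-coding transcript Itgav was at 36.1 and 36.1 RPKM in the OX40-knockout and 35.9 and 33.7 RPKM in the wild-type libraries, below Itgb3 at 105.5 and 84.2 RPKM in the OX40-knockout and 66.9 and 85.1 RPKM in the wild-type libraries. Its partner Itgb5 was at 16.5 and 4.16 RPKM in the OX40-knockout libraries, against 6.05 and 5.81 RPKM in the wild-type libraries. OX40-knockout 1 held the highest value of Itgb3 and Itgb5 but not of Itgav itself. The beta1 chain is another partner of alphav, and Itgb1 was lowest in OX40-knockout 1. It was at 117 and 187 RPKM in OX40-knockout 1 and 2, against 213 and 211 RPKM in wild-type 1 and 2.

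Over the whole set, 0 of 10 members passed limma at an adjusted p under 0.05, where the share over all 11625 tested genes was 0%. At an unadjusted p under 0.05 there were 0 members and 1.39% of all tested genes. limma-voom, run on read counts recovered from RPKM, also called 0 members, and 0 were at an unadjusted p under 0.05. Both OX40-knockout libraries lay above both wild-type libraries for 2 members (Itgb2 and Itgav), where the share over all genes was 8.66%. They lay below for 2 members (Itgb1 and Itga1), where it was 17.8%. For Itgav, OX40-knockout 1 and wild-type 1 lay within counting error of each other. The median log2 change of the members was 0.05, and that of all tested genes was -0.03. A p that misses the threshold with 2 libraries a group does not show that the levels were alike. The intervals allow a doubling or a halving for Itgb1, Itga1, Itgb7, Itgae and Itgax in at least 1 direction, and not for Itgal, Itgb2, Itga4, Itga2 and Itgav.

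**Figure D2:**
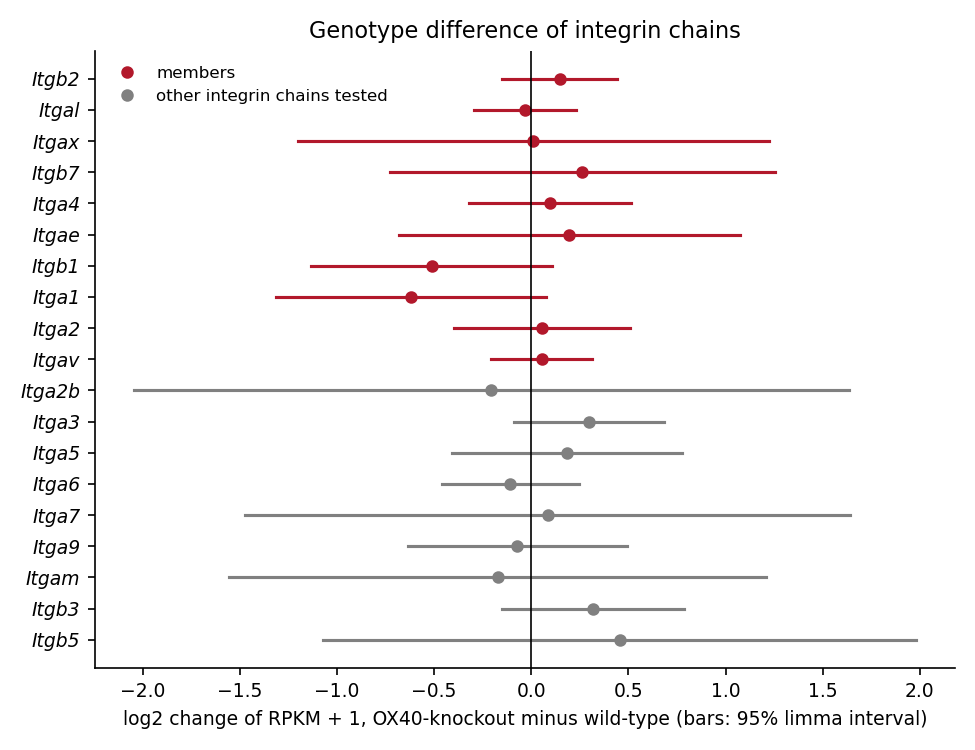
Log2 change of RPKM + 1 (OX40-knockout minus wild-type) of the 10 members and of the 9 other integrin chains tested, with 95% limma intervals as bars (2 libraries per group). Every bar crosses 0; the bars are short for Itgal, Itgb2 and Itgav and wide for Itgb7, Itgae and Itgax.

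The widest gaps for beta7, beta1, alpha1 and alphaE lay between OX40-knockout 1 and the other libraries. At least 1.5-fold above the other 3 libraries, OX40-knockout 1 held 2 of 10 members (Itgb7 and Itgae), against 6.06% of all tested genes. At least 1.5-fold below the other 3, it held 2 members (Itgb1 and Itga1), against 3.95% of genes. No member was that far out in any other single library. The balance of the beta chains that share alpha4 differed accordingly. The ratio of Itgb7 to Itgb1 was 4.77 in OX40-knockout 1 and 1.42 in OX40-knockout 2, against 1.72 and 1.33 in wild-type 1 and 2. OX40-knockout 2 thus lay within the range of the wild-type libraries. Within replicate 1 the OX40-knockout value was 1.52-fold the wild-type value for Itgb7 and 0.550-fold for Itgb1. Within replicate 2 it was 0.947-fold and 0.888-fold.

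Markers of CD4 and CD8 T cells were also highest in OX40-knockout 1, although CD4 and CD8 were sorted against. Their 3 genes, none of them at 0, summed to 31.1 and 13.1 RPKM in OX40-knockout 1 and 2, against 14.6 and 14.9 RPKM in wild-type 1 and 2. Cd4 was at 10.1 and 2.06 RPKM in OX40-knockout 1 and 2, against 0.820 and 1.97 RPKM in wild-type 1 and 2. All 3 genes (Cd4, Cd8a and Cd8b1) had their highest value in OX40-knockout 1. The 6 B cell markers summed to 26.7 and 13.0 RPKM in OX40-knockout 1 and 2, against 15.9 and 14.0 RPKM in wild-type 1 and 2. Most of that sum came from the immunoglobulin gene Ighm, while the B cell markers Ms4a1 and Pax5 were at 0 in all 4 libraries. The part of these cell types in the values of OX40-knockout 1 was not tested.

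Transcript GC content differed among the members and moved with the values of OX40-knockout 1 over all genes. The median deviation of tested genes in that library from the mean of the 4 libraries climbed over 5 equal classes of genes from -0.19 at the lowest GC content to 0.21 at the highest, in log2(RPKM + 1). Itgb7 had the highest GC content of the members, at 58.1%, and a deviation of 0.66 in OX40-knockout 1. Itga1 and Itgb1, at 43.3% and 44.7%, deviated by -0.68 and -0.59 there. After a correction for GC content the deviations in that library were 0.45 for Itgb7, -0.53 for Itga1 and -0.47 for Itgb1, so they were smaller and kept their signs. Itga4 and Itga2, at 43.5% and 44.1%, deviated by -0.12 and 0.12 in OX40-knockout 1. Itgae, at 51.4%, deviated by 0.53 before and 0.52 after the correction. With the correction the log2 change between genotypes was -0.42 for Itgb1, -0.52 for Itga1 and 0.15 for Itgb7. The part of GC content in the values of OX40-knockout 1 was not tested beyond this correction.

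**Figure D3:**
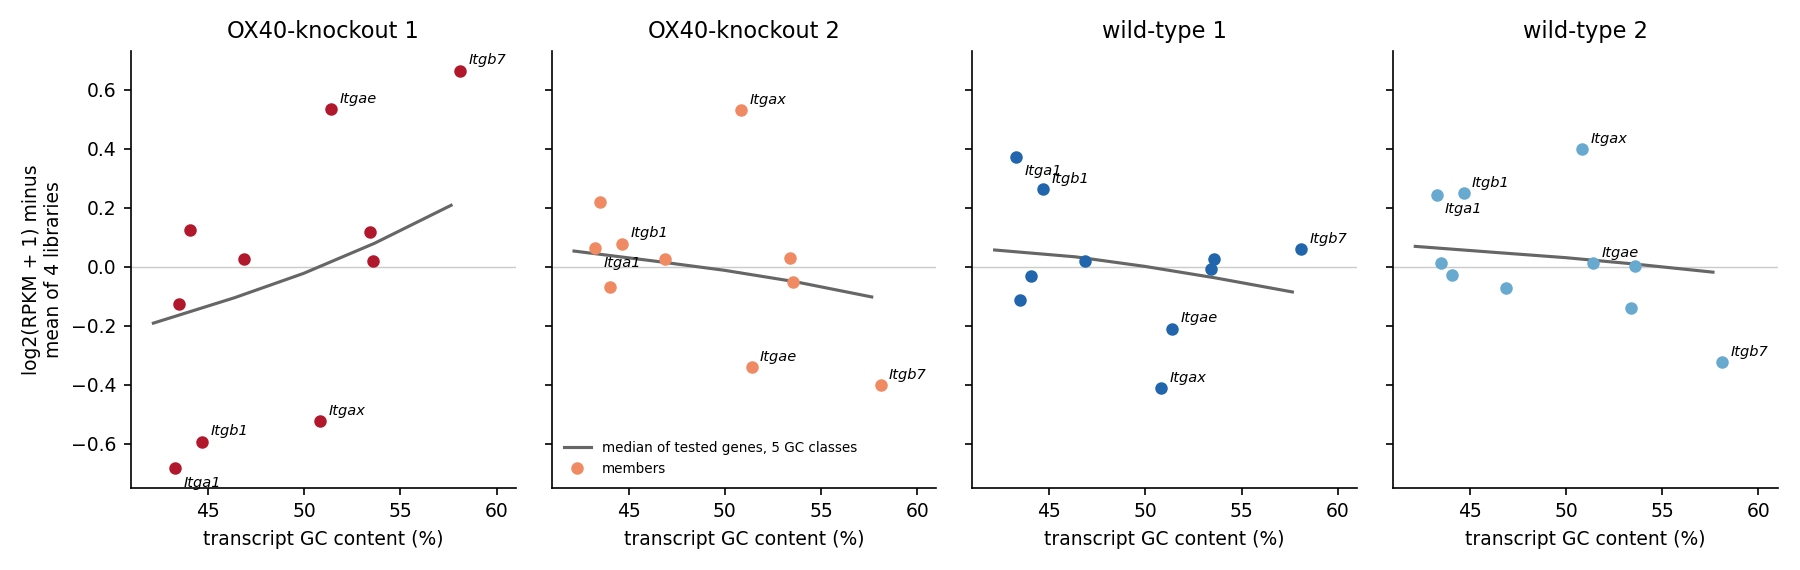
Deviation of each member from its mean over the 4 libraries in log2(RPKM + 1), on the vertical axis, against GC content of its transcripts (%), 1 panel per library, OX40-knockout panels first. The grey line is the median of all tested genes in 5 classes of GC content; in OX40-knockout 1 it climbs from -0.19 to 0.21, while Itgb7 (0.66), Itgae (0.53), Itgb1 (-0.59), Itga1 (-0.68) and Itgax (-0.52) lie well off it.

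Itgax followed the replicate number in place of the genotype. It had the lowest mean of the members by the authors' lengths. Per longest protein-coding transcript Itga2 was lower, at a mean of 1.49 RPKM against 1.74 RPKM for Itgax. It was at 0.812 and 2.76 RPKM in OX40-knockout 1 and 2, against 0.958 and 2.43 RPKM in wild-type 1 and 2. The 95% Poisson intervals of the replicate 1 libraries, 0.637 to 1.021 RPKM for OX40-knockout 1 (73 reads) and 0.771 to 1.18 RPKM for wild-type 1 (90 reads), did not reach those of the replicate 2 libraries, 2.43 to 3.12 RPKM (252 reads) and 2.13 to 2.76 RPKM (240 reads). Both replicate 2 libraries were at least 1.5-fold above both replicate 1 libraries for this 1 member of 10, against 1.54% of all tested genes. Both replicate 1 values were under 1 RPKM, so Itgax reached the mean needed for testing only through the replicate 2 libraries. The count is therefore a description only. The log2 change between genotypes was 0.01 (SE 0.47, limma adjusted p = 0.998). It was -0.52 without OX40-knockout 2 and -0.39 without wild-type 1. It was 0.54 without OX40-knockout 1 and 0.41 without wild-type 2. Itgam, the alphaM chain of beta2, whose gene also lies on chromosome 7, was at 0.957 and 3.19 RPKM in OX40-knockout 1 and 2, against 1.21 and 3.72 RPKM in wild-type 1 and 2. It split in the same way. In GENCODE vM21 Itgam shares 68.7% of its annotated exon bases with Gm49368 on the same strand. The deposited table holds no values for Gm49368, so how this overlap bears on the Itgam counts is not known.

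Markers of NK cells split by replicate number as Itgax did, although cells without NK markers were sorted. All 8 of 8 were higher in both replicate 2 libraries than in both replicate 1 libraries, with summed levels of 303 and 1090 RPKM in OX40-knockout 1 and 2, against 552 and 955 RPKM in wild-type 1 and 2. Ncr1, encoding the activating NK receptor NKp46, was at 0.183 and 7.49 RPKM in OX40-knockout 1 and 2, against 0.408 and 7.93 RPKM in wild-type 1 and 2. The 4 platelet markers other than integrin genes did the same, at 3.07 and 8.87 RPKM summed in the OX40-knockout and 1.29 and 13.9 RPKM in the wild-type libraries. Among them Gp9 and Gp1bb rest on few reads. Gp9 had 2 and 6 reads in OX40-knockout 1 and 2, against 2 and 9 in wild-type 1 and 2. Gp1bb had 4 and 5 reads in OX40-knockout 1 and 2, against 2 and 21 in wild-type 1 and 2. The platelet alpha chain Itga2b was at 4.16 and 7.67 RPKM in OX40-knockout 1 and 2, against 2.85 and 14.4 RPKM in wild-type 1 and 2. Itgb3, the other integrin gene on the platelet list, did not split by replicate number and was the highest of the list. It was at 120.1 and 95.9 RPKM in OX40-knockout 1 and 2, against 76.2 and 96.9 RPKM in wild-type 1 and 2. Of 9 monocyte, macrophage and neutrophil markers other than Itgam, 4 were higher in both replicate 2 libraries, with sums of 46.3 and 48.6 RPKM in the OX40-knockout and 35.5 and 55.1 RPKM in the wild-type libraries. For dendritic cells, which are known for high Itgax, it was 2 of 9 markers other than Itgax, with sums of 192 and 90.2 RPKM in the OX40-knockout and 104 and 91.3 RPKM in the wild-type libraries. Most of the dendritic cell sum came from H2-Ab1, at 163 and 65.5 RPKM in the OX40-knockout and 88.7 and 69.5 RPKM in the wild-type libraries. Cd68 and Ly6g made up most of the monocyte, macrophage and neutrophil sum. Of the 4 markers on that list that were higher in both replicate 2 libraries, S100a8 and S100a9 rest on few reads. S100a8 had 0 and 4 reads in OX40-knockout 1 and 2, against 1 and 9 in wild-type 1 and 2. S100a9 had 0 and 6 reads in OX40-knockout 1 and 2, against 0 and 15 in wild-type 1 and 2. The dendritic cell markers Cd209a and Siglech were at 0 in all 4 libraries, and Flt3 and Clec9a had at most 3 reads in any. Most αβ T cell markers went the other way. Of these 9, 6 were higher in both replicate 1 libraries and 1 was higher in both replicate 2 libraries. The share of all tested genes that were higher in both replicate 2 libraries at any fold was not computed, so these marker counts are a description only. The part of these cell types in the Itgax values was not tested.

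**Figure D4:**
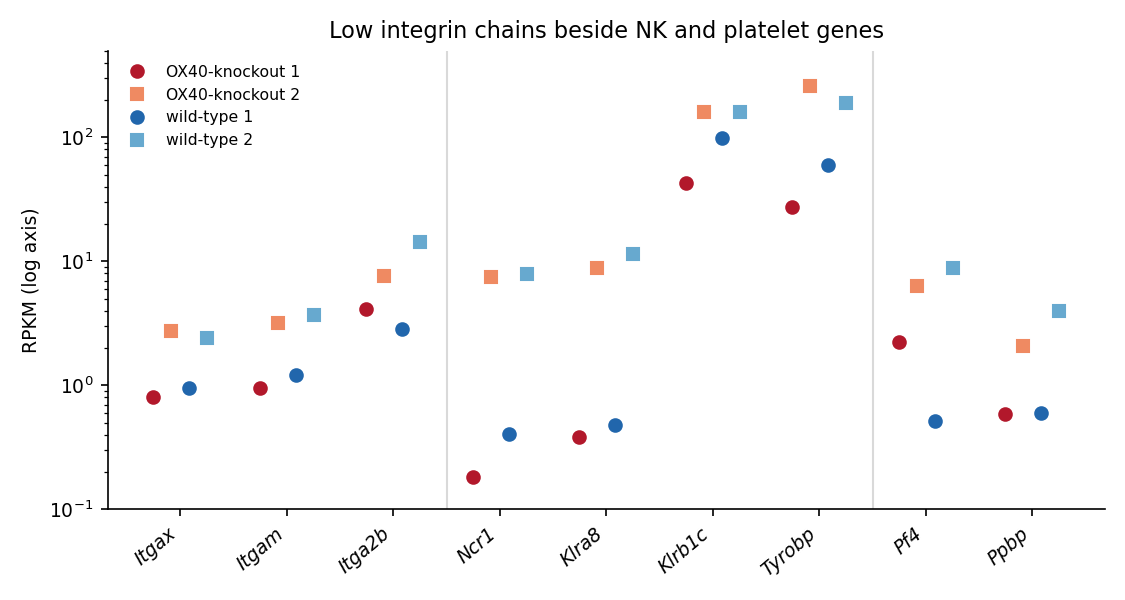
RPKM on a log axis of Itgax, Itgam and Itga2b (left), 4 NK cell markers (middle) and 2 platelet markers (right), 1 point per library, OX40-knockout libraries left of wild-type libraries, circles for replicate 1 and squares for replicate 2. The squares lie above the circles for every gene shown; for Itgax they are at 2.76 and 2.43 RPKM, with the circles at 0.812 and 0.958 RPKM.

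Ordered by their mean RPKM over the 4 libraries, the members ran Itgb2, Itgb7, Itgal, Itgb1, Itgav, Itga1, Itga4, Itga2, Itgae and Itgax. The ranges over the libraries overlapped between Itgb2 and Itgb7, between Itgb7 and Itgal and between Itga1 and Itga4, and along Itga2, Itgae and Itgax. Itgal stood apart from Itgb1 (at least 260.4 against at most 213 RPKM), Itgb1 from Itgav (117 against 106 RPKM), Itgav from Itga1 (98.8 against 27.9 RPKM) and Itga4 from Itga2 (19.0 against 2.82 RPKM). Levels of different genes rest on the length the authors divided by. The values imply a whole number of bases for 11615 of the 11625 tested genes, such as 1540 for Itgb7 and 1799 for Itgb2, where the longest protein-coding transcripts in GENCODE vM21 have 2683 and 2970 bases. By mean, dividing by these transcript lengths left Itgb2 first and put Itgal above Itgb7 and Itga2 below Itgax and Itgae. Itgb7 stayed above the sum of Itga4 and Itgae, by 29.8 and 14.3 times in OX40-knockout 1 and 2 and by 23.5 and 15.9 times in wild-type 1 and 2. Itga1 shares 3.68% of its annotated exon bases with Gm49395 on the same strand, a gene without values in the deposited table. Itga4 shares 8.04% of its annotated exon bases with Cerkl on the opposite strand, and the treatment of such reads remains not given in the sources used here. Cerkl itself was between 1.36 and 1.53 RPKM in the OX40-knockout libraries, against 1.55 to 1.60 RPKM in the wild-type libraries.

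Of the 16 other integrin chains, 9 had a mean of at least 1 RPKM and none passed limma (5 higher, 4 lower on average, median log2 change 0.08). Itga8, Itgb6 and Itgb8 were at 0 in all 4 libraries. Itga3, a laminin-binding partner of beta1, was the 1 chain whose groups did not overlap, at 9.35 and 7.93 RPKM in the OX40-knockout libraries, against 6.60 and 7.05 RPKM in the wild-type libraries (log2 change 0.30, SE 0.15, limma adjusted p = 0.975). Thus 1 of 9 tested chains was higher in both OX40-knockout libraries, where the share over all genes was 8.66%. The count that was lower in both was 0, where the share was 17.8%. Itga6, another laminin-binding chain, was at 9.18 and 9.79 RPKM in the OX40-knockout libraries, against 9.67 and 10.97 RPKM in the wild-type libraries. The fibronectin receptor chain Itga5 was at 6.31 and 7.96 RPKM in the OX40-knockout libraries, against 5.01 and 7.44 RPKM in the wild-type libraries. Itga9 was at 1.62 and 1.26 RPKM in the OX40-knockout libraries, against 1.84 and 1.30 RPKM in the wild-type libraries. The groups overlapped for Itga5, Itga6 and Itga9. Itga7 was spread widely within the OX40-knockout group, at 11.4 and 2.84 RPKM, against 6.98 and 4.32 RPKM in the wild-type libraries.

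Proteins that bind integrin tails or relay signals to them switch integrins on. Of 28 genes for activation and adaptor proteins, 27 were tested and none passed limma, with 14 higher and 13 lower on average and a median log2 change of 0.01. Both OX40-knockout libraries lay above both wild-type libraries for 1 of them, where the share over all genes was 8.66%, and below for 5, where it was 17.8%. Tln1, which encodes talin, the protein that binds beta tails and opens the receptor, was at 645 and 640.3 RPKM in the OX40-knockout libraries, against 579 and 645 RPKM in the wild-type libraries. Coro1a, encoding the actin-binding protein coronin 1A, was at 1815 and 1288 RPKM in the OX40-knockout libraries, against 1420.1 and 1387 RPKM in the wild-type libraries. Both genes had overlapping groups. Of the 2 genes of lowest p, the kinase gene Stk26 was at 32.5 and 37.7 RPKM in the OX40-knockout libraries, against 41.2 and 38.2 RPKM in the wild-type libraries. The other was Rassf5, which encodes RAPL, a partner in LFA-1 activation, at 63.1 and 46.7 RPKM in the OX40-knockout libraries, against 47.0 and 44.9 RPKM in the wild-type libraries. Both had a limma adjusted p of 0.975. Ilk was the untested one, with 2 and 5 reads in the OX40-knockout and 1 and 6 reads in the wild-type libraries. It shares 76.7% of its exon bases with Taf10 on the opposite strand.

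Of 18 ligands and counter-receptors, 10 were tested and none passed limma, with 5 higher and 5 lower on average and a median of 0.03. Cdh1, encoding E-cadherin, the ligand of alphaEbeta7, was at 31.6 and 47.5 RPKM in the OX40-knockout libraries, against 77.3 and 49.6 RPKM in the wild-type libraries (log2 change -0.66, SE 0.29, limma adjusted p = 0.975). Lamc1, a laminin chain, was at 46.3 and 35.2 RPKM in the OX40-knockout and 31.3 and 30.0 RPKM in the wild-type libraries, with the same limma adjusted p. For both genes the groups did not overlap. Of the 10 tested, both OX40-knockout libraries lay above both wild-type libraries for 1, where the share over all genes was 8.66%. They lay below for 2, where it was 17.8%. Spp1, which encodes osteopontin, a ligand of alphav and alpha4 integrins, held both extremes within the OX40-knockout group, at 472 and 2140.0 RPKM, against 1189 and 1361 RPKM in the wild-type libraries.

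Genes of TGF-beta signalling and RUNX factors are known regulators of Itgae. All 16 on that list were tested and none passed limma, with 9 higher and 7 lower on average and a median of 0.09. Its genes deviated from their 4-library means by a median of 0.23 and -0.05 in OX40-knockout 1 and 2, against -0.04 and -0.03 in wild-type 1 and 2. Such medians in OX40-knockout 1 were 0.30 for genes of tissue residence, 0.18 for ligands, 0.04 for activation genes and 0.07 for the other integrin chains. With the correction for GC content the median change of the TGF-beta and RUNX list was 0.02, and without OX40-knockout 1 it was -0.04. Runx3, a factor that drives Itgae in T cells, was at 385 and 327 RPKM in the OX40-knockout libraries, against 305 and 324 RPKM in the wild-type libraries, far above the level of Itgae itself. Tgfb1, the cytokine gene itself, was at 338 and 263 RPKM in the OX40-knockout libraries, against 268 and 263 RPKM in the wild-type libraries. Runx1 was at 24.4 and 17.5 RPKM in the OX40-knockout libraries, against 13.8 and 18.2 RPKM in the wild-type libraries. Zbtb7b, a factor of the CD4 lineage, was at 47.3 and 30.3 RPKM in the OX40-knockout libraries, against 28.7 and 31.3 RPKM in the wild-type libraries. OX40-knockout 1 held the highest value of all 4 genes, each with a limma adjusted p of 0.975.

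Of 15 genes of tissue residence and trafficking, 13 were tested and none passed limma, with 9 higher and 4 lower on average and a median of 0.17. That median was -0.06 without OX40-knockout 1, 0.32 without OX40-knockout 2 and 0.01 without wild-type 2. Its genes of lowest p encode regulators that damp chemokine receptor signals. Rgs2 was at 19.1 and 17.5 RPKM in the OX40-knockout libraries, against 13.8 and 10.5 RPKM in the wild-type libraries. Rgs1 was at 151 and 157 RPKM in the OX40-knockout libraries, against 128 and 115 RPKM in the wild-type libraries. Their groups did not overlap, and their limma p was 0.0219 and 0.0264 before adjustment and 0.975 after it. They were named for their low p, and 1.39% of all tested genes had an unadjusted limma p under 0.05. Of the 13 genes, both OX40-knockout libraries lay above both wild-type libraries for 3, where the share over all genes was 8.66%. They lay below for 1, where it was 17.8%. Cd69, which holds T cells in tissue by removing S1PR1 from the surface, was at 159 and 116 RPKM in the OX40-knockout and 154 and 94.6 RPKM in the wild-type libraries, with overlapping groups.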

How the data were processed

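RNA of 4 libraries of sorted double-negative regulatory T cells was sequenced. The authors deposited 1 table of RPKM values with 1 column per library. Bowtie 0.12.2 and the build mm8 stand in the submitters' processing notes. The counting tool, annotation and strand setting remain not given in the sources used here. The unit was settled from the values, since in genes with a single GENCODE vM21 transcript the smallest values are those of 1 read. That gave the library totals. Whole reads in all 4 libraries followed from ratios between libraries (relative tolerance 3e-09) for 11610 of 11625 tested genes, and the implied gene length was whole within 0.01 base for 99.9% of them. Symbols, GC content and lengths came from GENCODE vM21, which is of GRCm38, so the only coordinates given are those of the RefSeq windows. Differences were fitted by limma 3.58.1 (R 4.3.3, mean-variance trend, no block) on log2(RPKM + 1) for all genes whose mean reached 1 RPKM. Benjamini-Hochberg adjustment ran over all of them, with a threshold of 0.05. A change on this scale understates that of low genes. With 2 libraries a group, exact two-sided permutation tests stop at p = 0.333 and were left out. The libraries of a group differed by more than sampling noise (chi-square per degree of freedom of 86.2 for the OX40-knockout and 14.9 for the wild-type pair). Alternatives were another pseudocount, no filter, 2 scalings, a loess correction for GC content, a replicate block, no trend, limma-voom on recovered reads and leaving out each library. Members and lists were chosen with earlier results of these data known. Of each further list the 2 genes of lowest p and the 2 of highest mean were named, of the other integrin chains those tested; marker and overlapping genes were named where their values stand beside a member's. The other steps ran in Python 3.11.15 with scipy 1.17.1, pandas 2.3.3, numpy 2.4.6 and matplotlib 3.10.9.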

Additional observations from a re-analysis of the deposited data

How the results depend on the processing

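Under 13 alternatives, 120 of 130 values of the 10 members kept their direction and none passed limma. Those that turned were Itgal at 0.0007 with median-of-ratios scaling, and Itgax at -0.0194 with a pseudocount of 0.1 and -0.0345 with limma-voom on recovered reads. Leaving out 1 library turned others, with ranges of -0.0677 to 0.0046 for Itgal, -0.0767 to 0.27 for Itga4, -0.27 to 0.80 for Itgb7, -0.24 to 0.63 for Itgae, -0.0394 to 0.15 for Itga2 and -0.52 to 0.54 for Itgax; fewer samples enter those fits. Members called stayed at 0 throughout. The number of all genes called went from 0 to 1 with quantile normalization, and leaving out a library gave 0 to 1. Genes at an unadjusted p under 0.05 went from 162 to 603 with no filter, where 20996 genes are tested, and leaving out a library gave 76 to 3832. The labels do not say that replicate numbers pair libraries; differences between the numbers correlated between the groups over genes (r = 0.47, genes not being independent). With the replicate block 5 genes were called and 373 had an unadjusted p under 0.05. With the block and the GC correction 0 were called and 435 had such a p. Itgb1 and Itga1 had an unadjusted p under 0.05 with the block, and Itga1 alone with the block and the GC correction. The median of the members went from 0.0547 to 0.0639 with a pseudocount of 0.1, 0.0649 with limma-voom, 0.0824 with median-of-ratios scaling, 0.0696 with quantile normalization, 0.12 with the GC correction alone or with the replicate block, and -0.0536 to 0.0647 without 1 library. Leaving out a library moved the median to between 0.0378 and 0.375 for other integrin chains, -0.0203 and 0.0788 for activation genes, -0.07 and 0.21 for ligands, -0.0396 and 0.29 for the TGF-beta list and -0.0619 and 0.318 for tissue residence and trafficking. Per the longest coding transcript, an alternative chosen after seeing the data, mean RPKM was 240.6 for Itgb2, 232.9 for Itgal, 211 for Itgb7, 96.4 for Itgb1, 35.5 for Itgav, 12.1 for Itga1, 7.87 for Itga4 and 1.49 for Itga2. Itgae and Itgax moved by less than the spread between libraries. The cause of these shifts was not tested. Depth limits Itgax, Itgae and Itga2, with 73 to 309 reads a library.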
